A study of Mus musculus with 6 samples.

Results

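The genes described here are 10 genes of insulin and insulin-like growth factor (IGF) receptor signalling, taken by name: the ligand gene Igf1, the receptor genes Insr and Igf1r, the adaptor genes Irs1 and Irs2, the phosphoinositide 3-kinase (PI3K) subunit genes Pik3r1 and Pik3ca, the kinase genes Akt1 and Akt2, and Tbc1d4. All 10 of 10 were found among the 23808 genes of the table. They were measured by mRNA sequencing of heart tissue from wild-type (WT) female mice. The mice were fed normal chow (NC) or a high-fat diet (HFD) from week 4 to week 12 of life. There were 3 libraries for each feed, and no allele, transgene or drug is named for either. The series title speaks of polycystic ovary syndrome mice, but the 6 libraries are labelled by diet alone.

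Insulin and IGF1 bind a pair of closely related receptor tyrosine kinases, encoded by Insr and Igf1r. The active receptors phosphorylate the adaptor proteins IRS1 and IRS2, which recruit PI3K, and the lipid that PI3K makes brings AKT to the membrane. In heart muscle AKT phosphorylates TBC1D4, which releases GLUT4 glucose transporters to the cell surface, and it keeps FoxO transcription factors out of the nucleus. Most of this control acts on proteins by phosphorylation, which mRNA levels do not measure.

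Values are FPKM, fragments scaled to gene length and to the size of the library, as the authors deposited them. They are per length, so levels of different genes can be set side by side, although no source used here gives the gene lengths. The read depth of the libraries is unknown. The summed FPKM was 694956 to 739406 on NC and 576334 to 708120 on HFD, and 4 mitochondrially encoded genes that were abundant in every other library were listed at 0 in HFD 1. Cardiomyocyte markers were abundant in all 6 libraries, with a summed level of 10 genes between 25933 and 38446 FPKM. Atrial markers (353 to 14011 FPKM summed over 8 genes) and adipocyte markers (1.17 to 70.5 FPKM over 8 genes) varied widely between libraries of both diets. The labels do not say whether each library is a different animal, so p-values reflect the spread over these libraries, which may be only technical.

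The promoters of the adaptor genes are shown first, because in each a pair of the searched motifs lies close together or overlaps. The 250 bases before the RefSeq start (build GRCm38.p6) were read for 9 of the 10 genes. Insr has no entry. The motifs searched on both strands and marked were the E-box (CACGTG), the core of the insulin response element (TGTTTTG) and the FoxO site (TGTTTAC). The E-box was in 6.02%, TGTTTTG in 5.56% and TGTTTAC in 3.16% of 32817 promoters of this length. The GC box (GGGCGG, in 32.7%) and CACGTGTT (in 0.494%) were also searched and are not marked. Below, matches are in capitals, 5′ to 3′ on the gene's strand, for Irs1 (chr1:82291440-82291689, minus strand), Irs2 (chr8:11008930-11009179, minus strand) and the related adaptor gene Irs4 (chrX:141725218-141725467, minus strand).
Irs1: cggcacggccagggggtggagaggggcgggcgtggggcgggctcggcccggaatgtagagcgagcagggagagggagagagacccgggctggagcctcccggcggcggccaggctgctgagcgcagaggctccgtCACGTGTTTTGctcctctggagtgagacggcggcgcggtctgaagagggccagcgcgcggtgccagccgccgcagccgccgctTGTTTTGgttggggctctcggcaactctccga
Irs2: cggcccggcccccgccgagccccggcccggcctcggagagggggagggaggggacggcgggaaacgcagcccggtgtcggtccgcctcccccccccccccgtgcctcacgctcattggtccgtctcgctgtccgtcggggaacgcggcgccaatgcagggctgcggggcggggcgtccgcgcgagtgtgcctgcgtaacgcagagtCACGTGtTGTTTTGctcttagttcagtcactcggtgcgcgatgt
Irs4: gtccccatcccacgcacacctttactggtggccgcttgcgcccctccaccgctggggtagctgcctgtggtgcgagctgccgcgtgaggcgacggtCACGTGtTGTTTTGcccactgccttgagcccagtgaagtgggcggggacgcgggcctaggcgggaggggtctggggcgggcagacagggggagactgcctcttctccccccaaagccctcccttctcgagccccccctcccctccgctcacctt

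Among the 9 genes with a promoter, Irs1 and Irs2 were the ones with an E-box or TGTTTTG in these windows. In Irs1 the E-box began at −115 from the start and ran into TGTTTTG, the motifs overlapping by 2 bases, and TGTTTTG occurred 2 times in the window. In Irs2 the E-box began at −44, and TGTTTTG followed after 1 base. These positions count from the RefSeq start. For Irs2 that start lies upstream of the gene span in GENCODE (window from base 11008930, span to base 11008458). Its position therefore depends on the start used. The longest runs common to both windows were GTCACGTGTT and TGTTTTGCTC, of 10 bases each. Both motifs occurred anywhere in the window in 97 promoters (0.296%). An E-box with TGTTTTG beginning 4 to 7 bases after its first base, on the same strand, was in 7 promoters (0.0213%). These belong to Irs1, Irs2, Irs4, Klf11, Pcbp1, Pyroxd1 and 1700019P21Rik. The spacing was set after Irs1 and Irs2 had been read, so those belong to it by construction, and Irs4, with the E-box at −154 and the same 1-base gap as Irs2, was found by it. The expression of Irs4 was not analysed here. Of the other members, Akt1 had TGTTTAC at −161 of one of its promoters. A match describes these letters and no more, and windows without one say nothing of binding elsewhere.

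The members fell into 3 tiers of level. Akt1 and Akt2 were highest, at means of 34.6 and 30.0 FPKM over the 6 libraries, above 88.8% and 87.1% of the 11456 tested genes (mean of at least 1 FPKM). Their ranges, 27.4 to 44.0 and 20.5 to 39.7 FPKM, overlapped each other and lay above every value of the other members. Tbc1d4 (mean 9.80 FPKM), Igf1 (6.88), Pik3ca (6.52), Pik3r1 (6.40) and Insr (6.33) formed the middle tier. Neighbours in that order overlapped. Igf1r (2.22 FPKM), Irs1 (1.72) and Irs2 (0.951) were lowest, and again neighbours overlapped, while all Igf1r values lay below all Insr values.

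No member passed the test of a difference between the diets. By limma with Benjamini-Hochberg adjustment over all tested genes, 0 of the 9 tested members passed an adjusted p of 0.05, against 0% of all 11456 genes, and each had an adjusted p of 0.9998. At an unadjusted p under 0.05 there were again 0 members, against 3.62% of all genes. The log2 difference was positive, HFD above NC, in 4 of the 9 tested members and in 46.9% of all tested genes. The diets overlapped in all 10 members, where 8.13% of tested genes had no overlap. The log2 difference, HFD minus NC on the log2(FPKM + 1) scale, was −0.17 to 0.38, and the 95% intervals printed with the genes below show which sizes remain possible.

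**Figure D1:**
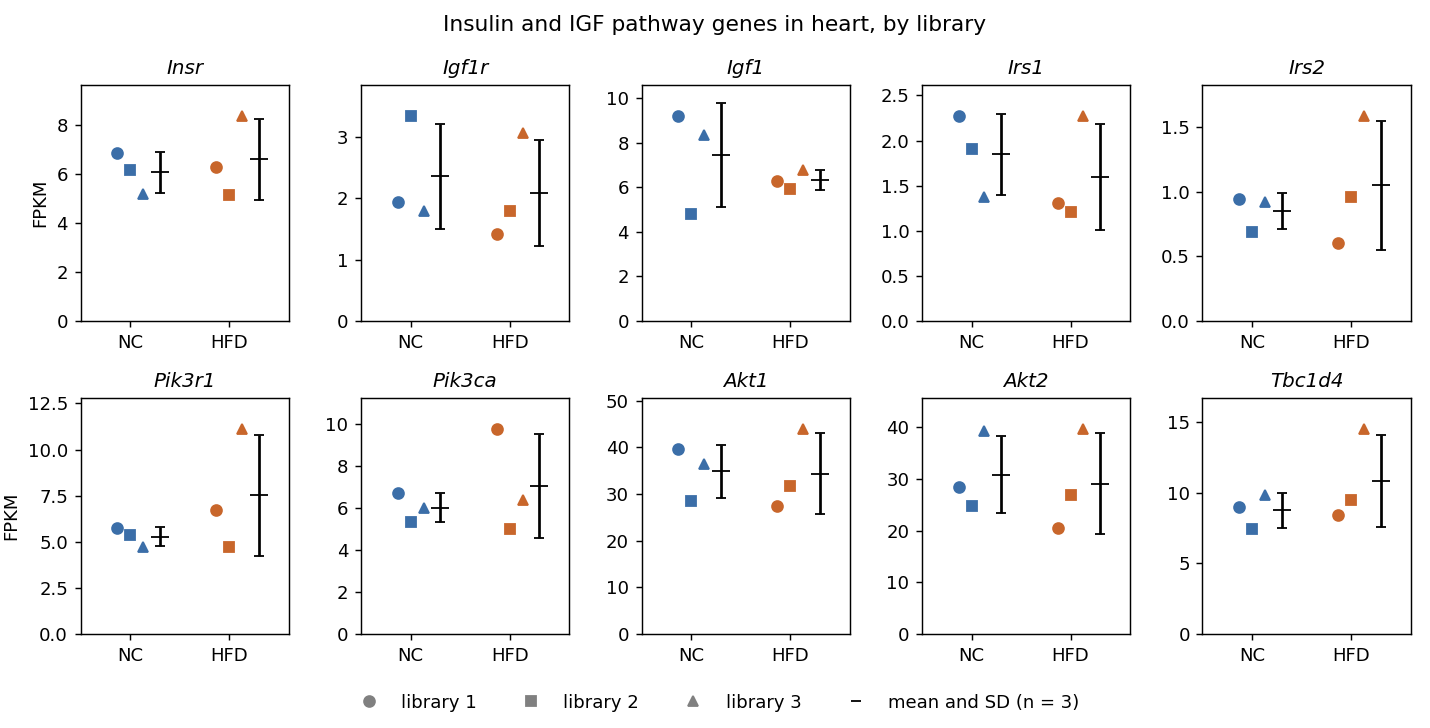
FPKM of the 10 genes in each library (points, y axis from 0; circle, square and triangle for libraries 1, 2 and 3) with the mean and SD of 3 libraries per diet (black). NC and HFD points overlap in every panel, and HFD 3 is the highest point of 7 panels.

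Igf1 encodes the growth factor ligand IGF1. It spans bases 87858265 to 87937042 of chromosome 10 (plus strand) (coordinates of members are from GENCODE annotation of mm10). It read 9.20, 4.82 and 8.34 FPKM in the chow libraries NC 1 to NC 3, and 6.29, 5.90 and 6.76 FPKM in the high-fat libraries HFD 1 to HFD 3, an order kept for every gene that follows. The NC libraries enclosed all HFD values. Igf1 was at 7.45 ± 2.32 FPKM (NC) against 6.32 ± 0.431 FPKM (HFD; SD, n = 3 each), a log2 difference of −0.17 (95% interval −0.71 to 0.38, limma adjusted p = 0.9998), which was −0.42 without NC 2 and −0.01 without NC 1.

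In the heart Igf1 is known to come largely from fibroblasts and macrophages. The summed level of 10 fibroblast markers was 1359, 757 and 1494 FPKM in NC 1 to NC 3 and 783, 795 and 1361 FPKM in HFD 1 to HFD 3, and that of 10 macrophage markers was 319, 214 and 296 and then 159, 195 and 205 FPKM. NC 2 was lowest of the NC libraries in Igf1 and in both sums. It was also lowest of all libraries in Igf1 and in the fibroblast sum, but every HFD library had a lower macrophage sum. On HFD the highest Igf1 value and both highest sums were in HFD 3. The lowest Igf1 value there was in HFD 2, and both lowest sums were in HFD 1. Fewer cells of a type and less RNA per cell cannot be told apart in RNA of mixed heart tissue. The part of these cells in the Igf1 values was not tested.

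Insr encodes the insulin receptor and spans bases 3122061 to 3279617 of chromosome 8 (minus strand). It read 6.85, 6.17 and 5.16 FPKM in the chow libraries and 6.28, 5.14 and 8.37 FPKM in the high-fat libraries. HFD 3 alone exceeded the NC values. Means were 6.06 ± 0.848 FPKM (NC) against 6.60 ± 1.64 FPKM (HFD; SD, n = 3 each, log2 difference 0.09, 95% interval −0.42 to 0.60, limma adjusted p = 0.9998). The estimate turned to −0.07 without HFD 3 and to −0.004 without NC 3, and was 0.23 without HFD 2.

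Igf1r, the gene of the IGF1 receptor, spans bases 67952827 to 68233668 of chromosome 7 (plus strand). It read 1.93, 3.34 and 1.79 FPKM in the chow libraries and 1.42, 1.78 and 3.06 FPKM in the high-fat libraries. One library of each diet, NC 2 and HFD 3, stood above the other 4. Igf1r was at 2.35 ± 0.855 FPKM (NC) against 2.09 ± 0.862 FPKM (HFD; SD, n = 3 each), with a log2 difference of −0.13 (95% interval −0.71 to 0.46, limma adjusted p = 0.9998) that was 0.08 without NC 2, 0.03 without HFD 1 and −0.34 without HFD 3.

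Of the 2 adaptor genes, Irs1 spans bases 82233101 to 82291416 of chromosome 1 (minus strand). It read 2.27, 1.90 and 1.37 FPKM in the chow libraries and 1.31, 1.20 and 2.28 FPKM in the high-fat libraries. NC 1 and HFD 3 held nearly equal highest values. The means were 1.85 ± 0.450 FPKM (NC) against 1.6 ± 0.590 FPKM (HFD; SD, n = 3 each, log2 difference −0.14, 95% interval −0.67 to 0.38, limma adjusted p = 0.9998). The estimate ran from −0.32 without HFD 3 to −0.04 without HFD 2. Exons of the antisense gene Gm9747 cover 30.9% of the Irs1 exon bases, and its own level was at most 0.0421 FPKM. No source used here says whether counting used strand, so reads of this pair may be mixed.

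Irs2 spans bases 10984681 to 11008458 of chromosome 8 (minus strand). It read 0.942, 0.692 and 0.923 FPKM in the chow libraries and 0.602, 0.958 and 1.59 FPKM in the high-fat libraries, so that HFD libraries were both lowest and highest. Its mean of 0.951 FPKM is just under the limit for testing. Irs2 was at 0.852 ± 0.139 FPKM (NC) against 1.05 ± 0.5 FPKM (HFD; SD, n = 3 each), a difference of 0.12 on the log2 scale (exact two-sided permutation p = 0.7, where 0.1 is the smallest that 3 against 3 libraries allow), which turned to −0.06 without HFD 3 and was 0.28 without HFD 1. Fitted without a filter on low values it had a limma adjusted p of 0.984. Exons of 9530052E02Rik, on the opposite strand, cover 2.56% of the Irs2 exon bases. Its level was at most 0.339 FPKM, in HFD 3, so reads of this pair may be mixed as well.

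Pik3r1 encodes p85alpha, the main regulatory subunit of PI3K, which binds the phosphorylated adaptors and holds the catalytic subunit. It spans bases 101680563 to 101768217 of chromosome 13 (minus strand). It read 5.75, 5.34 and 4.72 FPKM in the chow libraries and 6.74, 4.72 and 11.1 FPKM in the high-fat libraries. HFD 1 and HFD 3 exceeded all NC values, whereas HFD 2 was level with the lowest NC library. Its log2 difference of 0.38, with means of 5.27 ± 0.517 FPKM (NC) against 7.53 ± 3.28 FPKM (HFD; SD, n = 3 each), was the largest of the members (95% interval −0.22 to 0.98, limma adjusted p = 0.9998). It was 0.09 without HFD 3 and 0.63 without HFD 2.

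Pik3ca, the gene of the catalytic subunit p110alpha, spans bases 32397671 to 32468486 of chromosome 3 (plus strand). It read 6.70, 5.31 and 5.98 FPKM in the chow libraries and 9.77, 4.99 and 6.38 FPKM in the high-fat libraries. Here HFD 1, not HFD 3, was highest. Means were 6.0 ± 0.693 FPKM (NC) against 7.04 ± 2.46 FPKM (HFD; SD, n = 3 each, log2 difference 0.16, 95% interval −0.39 to 0.71, limma adjusted p = 0.9998), and the estimate turned to −0.07 without HFD 1 and was 0.35 without HFD 2.

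Akt1 encodes the AKT isoform known for its role in growth and survival. It spans bases 112653821 to 112674884 of chromosome 12 (minus strand). It read 39.6, 28.5 and 36.5 FPKM in the chow libraries and 27.4, 31.7 and 44.0 FPKM in the high-fat libraries, and HFD libraries were both lowest and highest. The diet means were nearly equal, 34.8 ± 5.71 FPKM (NC) against 34.4 ± 8.61 FPKM (HFD; SD, n = 3 each, log2 difference −0.03, 95% interval −0.54 to 0.48, limma adjusted p = 0.9998). The sign of so small a difference was not stable. It was 0.04 after quantile normalization, 0.06 after scaling to the sum without mitochondrial genes, and from −0.22 without HFD 3 to 0.11 without HFD 1.

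Akt2, the isoform most tied to insulin-stimulated glucose uptake, spans bases 27591552 to 27640826 of chromosome 7 (plus strand). It read 28.5, 24.8 and 39.3 FPKM in the chow libraries and 20.5, 26.9 and 39.7 FPKM in the high-fat libraries. NC 3 and HFD 3 stood above the other libraries. Akt2 was at 30.9 ± 7.52 FPKM (NC) against 29.1 ± 9.79 FPKM (HFD; SD, n = 3 each, log2 difference −0.11, 95% interval −0.69 to 0.47, limma adjusted p = 0.9998), and the estimate was 0.07 without NC 3, 0.11 without HFD 1 and −0.35 without HFD 3.

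Tbc1d4 encodes the Rab GTPase-activating protein that AKT inhibits to free GLUT4 vesicles. It spans bases 101442360 to 101609191 of chromosome 14 (minus strand). It read 9.03, 7.41 and 9.85 FPKM in the chow libraries and 8.45, 9.50 and 14.6 FPKM in the high-fat libraries. HFD 1 and HFD 2 lay within the NC values and HFD 3 above them. Its means were 8.76 ± 1.25 FPKM (NC) against 10.8 ± 3.26 FPKM (HFD; SD, n = 3 each, log2 difference 0.25, 95% interval −0.28 to 0.78, limma adjusted p = 0.9998), and the estimate was 0.04 without HFD 3 and 0.40 without HFD 1.

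A single library was the highest in most members. HFD 3 held the highest value of 7 of the 10 members, all but Igf1r, Igf1 and Pik3ca, and it was the highest library in 34.5% of all tested genes. The median deviation of HFD 3 from a gene's own mean was 0.37 for the members and 0.17 for all tested genes (log2). After median-ratio scaling between libraries HFD 3 was highest in 4 members and in 13.2% of all genes, and after quantile normalization in 5 members and in 15.1%. The lowest values of the members lay in HFD 1 and HFD 2 (4 members each) and NC 2 (2 members). Members share the libraries, so these counts are not independent observations.

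**Figure D2:**
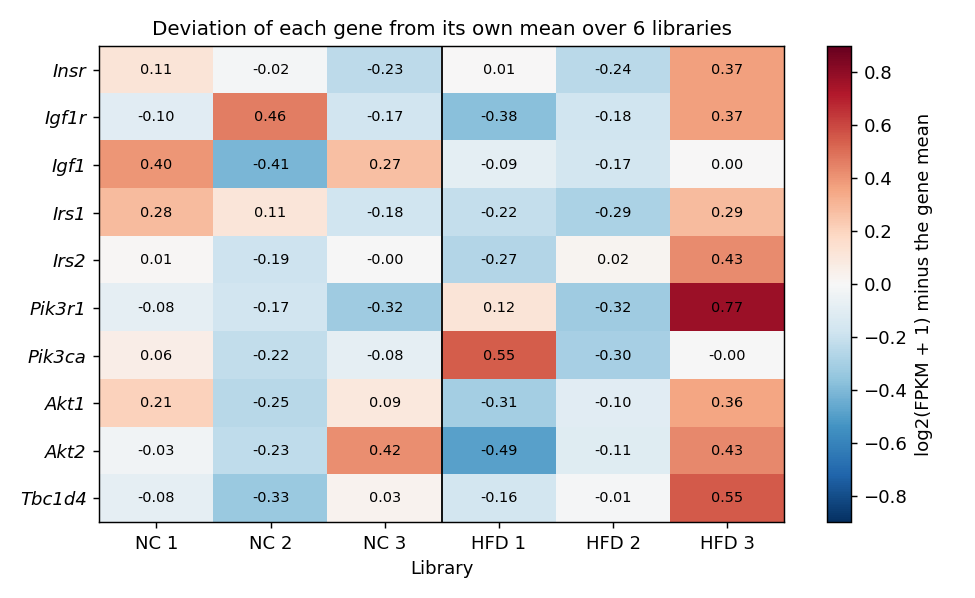
Each cell gives a gene's log2(FPKM + 1) in 1 library minus the gene's mean over the 6 libraries, red above and blue below it, with the line between NC and HFD. The HFD 3 column is at or above 0.29 for 8 genes and near 0 for Igf1 and Pik3ca.

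**Figure D3:**
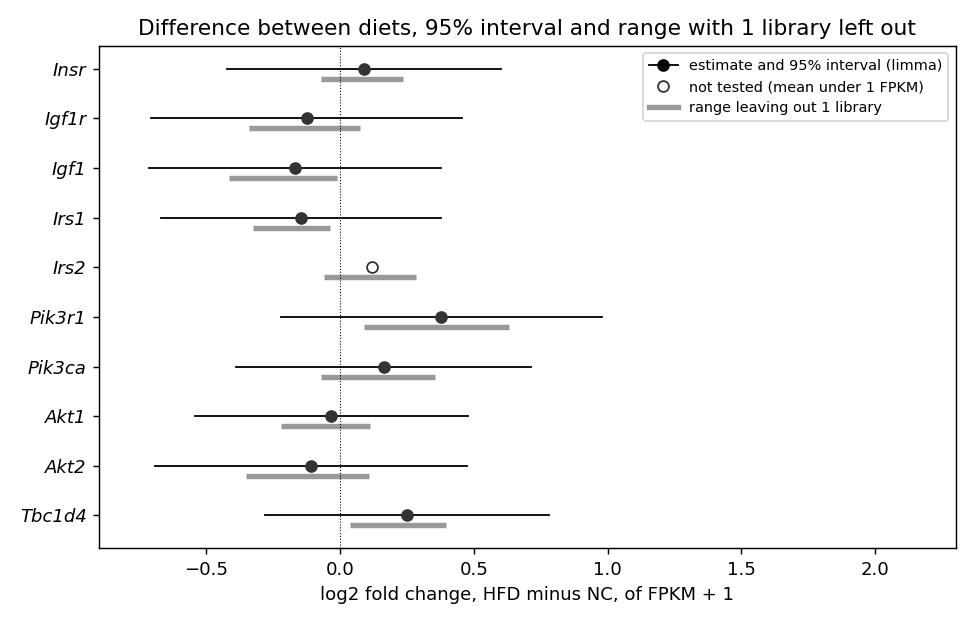
Log2 difference of each gene between the diets (points) with the 95% interval of limma (thin lines) and the range of estimates when 1 library is left out (grey bars). Every interval spans 0, and the open point, Irs2, was not tested.

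Ratios within a library compare partner genes, and a scale factor common to a library cancels in them. The Insr level was 1.85 to 4.42 times that of Igf1r in the 6 libraries. In log2 the ratio was 1.83, 0.89 and 1.53 in NC 1 to NC 3 and 2.14, 1.53 and 1.45 in HFD 1 to HFD 3. Irs1 exceeded Irs2 in 6 of 6 libraries, by 1.26 to 2.75 times. Its log2 ratio was 1.27, 1.46 and 0.57 on NC and 1.12, 0.33 and 0.52 on HFD, a difference of −0.44 between diet means with overlapping libraries, which was −0.27 without NC 2 and −0.71 without NC 3. The ratio of Akt1 to Akt2 stayed near equality, between 0.928 and 1.39, with Akt1 higher in 5 of 6 libraries. Pik3r1 to Pik3ca ranged from 0.690 in HFD 1 to 1.75 in HFD 3. Both subunit genes exceeded every NC value in HFD 1 and were lowest in HFD 2. In HFD 3 Pik3r1 was highest, while Pik3ca lay within the NC values. The log2 difference of the Pik3r1 to Pik3ca ratio between diets, 0.25, turned to −0.12 without HFD 3 and was 0.55 without HFD 1. That of Akt1 to Akt2, 0.08, turned to −0.07 without NC 3 and was 0.22 without NC 1. Ratios were described without a test.

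**Figure D4:**
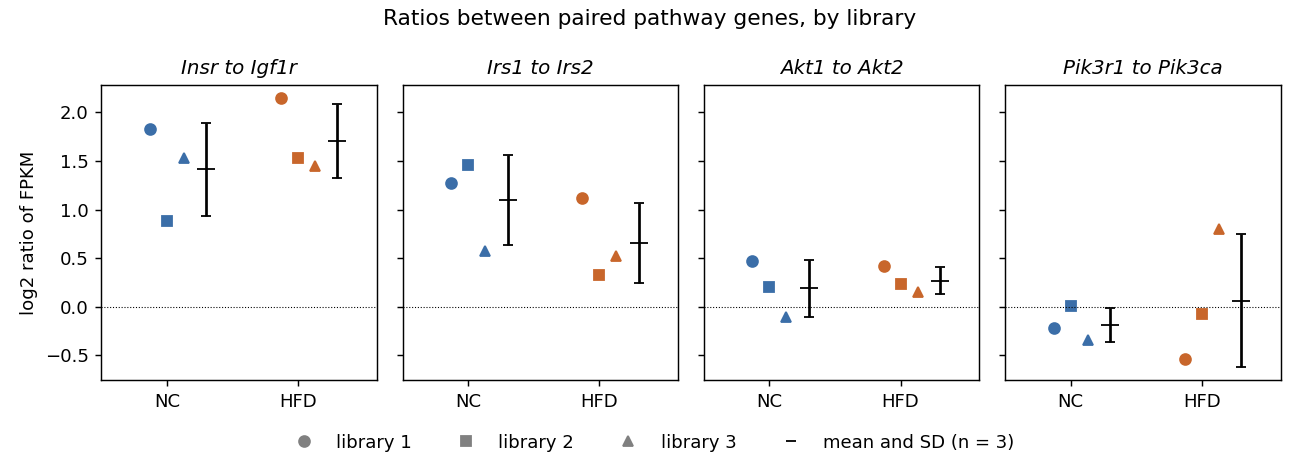
Log2 ratio of FPKM between 4 pairs of genes in each library (points; circle, square and triangle for libraries 1, 2 and 3), with the mean and SD per diet (black, n = 3) and a dotted line at equal levels. Insr to Igf1r and Irs1 to Irs2 lie above the line in all 6 libraries, and the diets overlap in every pair.

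The wider pathway was read from 5 lists that together hold 83 genes, of which 82 were found and 74 were tested. By limma 0 of the 74 passed an adjusted p of 0.05 (smallest 0.881, that of Socs1). At an unadjusted p under 0.05, 3 were higher and 2 lower on HFD, against 1.32% and 2.3% of all tested genes. The diets did not overlap in 3 genes with HFD above and 3 with HFD below, against 3.25% and 4.88%. The median log2 difference was 0.02, and −0.02 over all tested genes. It was positive in 41 of the 74 genes and in 46.9% of all tested genes.

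Ligands, binding proteins and related genes had 8 tested members of 10, and all 8 had a negative log2 difference, with a median of −0.49. Of all 11456 tested genes, 6083 were negative, with a median of −0.02. Marker lists were also one-sided. All 9 tested macrophage markers (median −0.51) and 9 of 10 fibroblast markers (−0.42) were negative. So were 9 of 10 cardiomyocyte markers (−0.23) and 9 of 10 pericyte and smooth muscle markers (−0.14). All 6 tested adipocyte markers (−0.55) and 7 of 8 atrial markers (−0.50) were negative too. Positive were 9 of 10 endothelial markers (0.14), all 5 erythroid markers (0.08) and 2 of 3 tested skeletal muscle markers (0.04). IGF-binding proteins hold IGF1 and IGF2 in the extracellular fluid and govern their access to the receptor. Igfbp7 read 422, 349 and 349 FPKM in the chow libraries and 231, 242 and 252 FPKM in the high-fat libraries. All HFD values lay below all NC values, at means of 374 ± 42.2 FPKM (NC) against 242 ± 10.6 FPKM (HFD; SD, n = 3 each, log2 difference −0.62, 95% interval −1.04 to −0.21, limma adjusted p = 0.9998). It was the most abundant gene of the 5 pathway lists and binds IGFs more weakly than the other binding proteins do.

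Igfbp3, which carries most circulating IGF, read 41.2, 20.2 and 55.5 FPKM in the chow libraries and 10.9, 12.9 and 40.7 FPKM in the high-fat libraries, where HFD 3 overlapped NC (log2 difference −0.96, SE 0.45, limma adjusted p = 0.9998, and −0.62 without HFD 1 or −1.53 without HFD 3). Igfbp5 read 24.5, 12.2 and 33.7 FPKM on chow, then 10.5, 7.77 and 29.6 FPKM on the high-fat diet (log2 difference −0.64, and −0.27 without HFD 2 or −1.17 without HFD 3). Igf2, the second ligand, read 58.6, 5.25 and 29.1 FPKM in the chow libraries and 6.89, 7.0 and 35.0 FPKM in the high-fat libraries, an 11.2-fold range over the libraries, with a log2 difference of −0.77 (SE 0.72), or −1.69 leaving out NC 2 and −0.06 leaving out NC 1. The third libraries and NC 1 were the high ones for Igf2, Igfbp3 and Igfbp5. The same libraries were high in the adipocyte sum, which was 70.5, 3.91 and 59.1 FPKM in the chow libraries and 1.17, 14.4 and 57.2 FPKM in the high-fat libraries, and in the fibroblast and atrial sums. Their part in these values was not tested. The median of this list was −0.75 without NC 2 and −0.21 without NC 1.

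Among receptors and adaptors, 10 of 14 genes were tested and 4 had a positive log2 difference (median −0.03, from −0.23 without HFD 3 to 0.07 without NC 3). Grb14, an inhibitory adaptor that binds the active insulin receptor, was abundant at 50.1 ± 9.01 FPKM (NC) against 39.5 ± 10.01 FPKM (HFD; SD, n = 3 each, log2 difference −0.35, SE 0.24, and −0.14 without HFD 2 or −0.51 without HFD 3). Its relative Grb10 was at 8.91 ± 0.881 FPKM (NC) against 9.74 ± 0.336 FPKM (HFD). Igf2r, which clears IGF2 and does not signal through PI3K, was at 7.03 ± 0.761 FPKM (NC) against 6.57 ± 1.35 FPKM (HFD; SD, n = 3 each), a log2 difference of −0.10 that was 0.03 without HFD 2 and −0.23 without HFD 3. Diets overlapped in these 3 genes.

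Of 19 genes of PI3K and kinases, 18 were tested and 13 had a positive log2 difference (median 0.10, from −0.01 without NC 2 to 0.18 without NC 3). Sgk1, a kinase related to AKT and activated through PI3K, read 40.7, 21.8 and 20.3 FPKM in the chow libraries and 45.4, 61.3 and 43.2 FPKM in the high-fat libraries. All HFD values lay above all NC values (log2 difference 0.89, 95% interval 0.29 to 1.48, limma adjusted p = 0.9998).

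Inhibitors of the pathway had 19 tested members of 21, 14 of them with a positive log2 difference (median 0.09, from 0.002 without HFD 3 to 0.21 without HFD 1). Socs1, a suppressor of cytokine signalling that can also bind the insulin receptor and the IRS proteins, read 2.67, 3.49 and 3.36 FPKM in the chow libraries and 0.621, 1.69 and 1.34 FPKM in the high-fat libraries. It did not overlap (log2 difference −0.94, 95% interval −1.47 to −0.40, limma adjusted p = 0.881). Its relative Socs3 read 1.6, 1.48 and 2.58 FPKM in the chow libraries and 0.816, 1.35 and 1.45 FPKM in the high-fat libraries, where the nearest libraries lay close together (log2 difference −0.38, SE 0.24, and −0.22 without NC 3). Pik3ip1, whose protein restrains the PI3K catalytic subunit, was at 15.8 ± 3.78 FPKM (NC) against 22.0 ± 2.38 FPKM (HFD; SD, n = 3 each, log2 difference 0.47, SE 0.23), with NC 3 above HFD 2. Ptpn1, the phosphatase that acts on the insulin receptor, was at 5.17 ± 0.892 FPKM (NC) against 4.87 ± 1.34 FPKM (HFD), a log2 difference of −0.09 that was 0.02 without NC 2 and −0.27 without HFD 3.

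The list of AKT targets also holds genes further downstream, such as Slc2a4. All 19 of its genes were tested, and 10 had a positive log2 difference (median 0.003, from −0.20 without HFD 3 to 0.17 without HFD 2). Slc2a4, the gene of GLUT4, read 65.6, 65.0 and 55.9 FPKM in the chow libraries and 39.7, 48.2 and 70.0 FPKM in the high-fat libraries, where HFD 3 exceeded every NC library (log2 difference −0.27, SE 0.23, and −0.09 without HFD 1 or −0.49 without HFD 3). The FoxO factor gene Foxo1 was at 1.74 ± 0.299 FPKM (NC) against 2.15 ± 0.6 FPKM (HFD), with a log2 difference of 0.19 that was 0.04 without HFD 3 and 0.30 without HFD 1. Foxo3, another FoxO factor gene, was at 4.29 ± 0.550 FPKM (NC) against 5.99 ± 2.09 FPKM (HFD), with one of 0.36 that was 0.14 without HFD 3 and 0.57 without HFD 2. Gsk3b, a kinase that restrains glycogen synthesis until AKT inhibits it, was at 3.01 ± 0.408 FPKM (NC) against 2.85 ± 0.503 FPKM (HFD; SD, n = 3 each throughout), and its log2 difference of −0.06 was 0.02 without HFD 1 and −0.16 without HFD 3. Diets overlapped in all 4 genes.

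**Figure D5:**
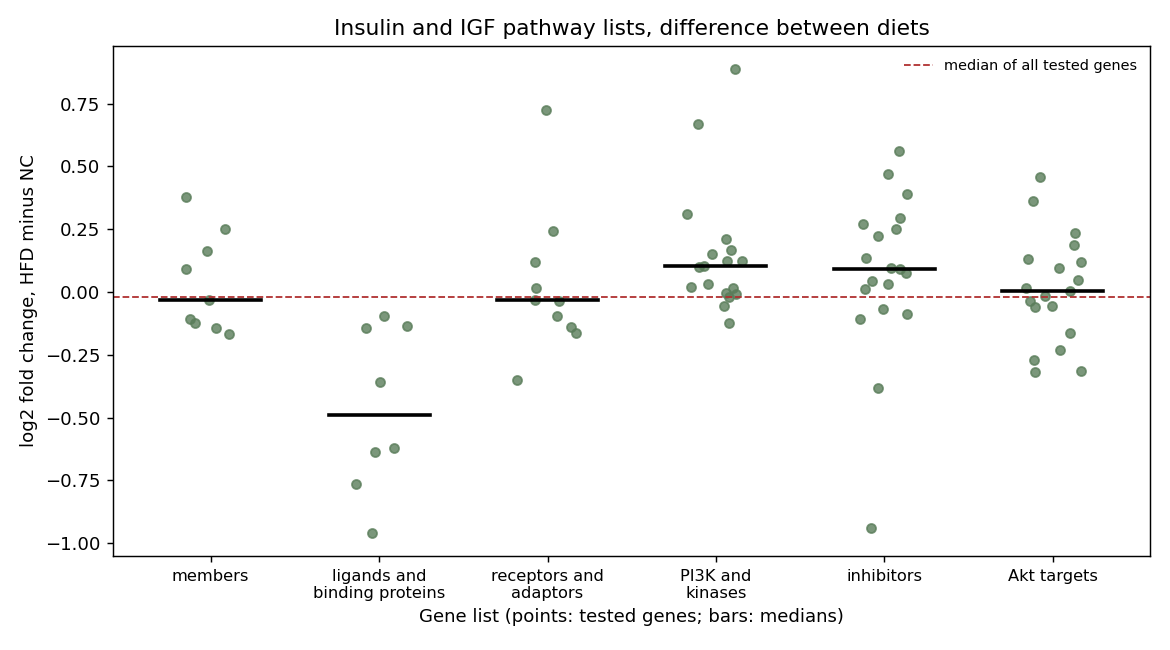
Log2 difference between the diets of each tested gene (points) in the 10 members and in 5 lists of the wider pathway, with list medians (bars) and the median of all tested genes (dashed). The 8 tested genes of the ligand and binding protein list all lie below 0, as do 6083 of all 11456 tested genes.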

How the data were processed

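The authors deposited FPKM, a length-scaled value for each gene in each library. No source used here says how they were made, at what depth or with what use of strand. Tools listed without roles in the submitters' processing notes are HISAT2 2.2.1, HTSeq 0.13.5, Trimmomatic 0.38, FastQC 0.11.9, DESeq2 1.18.1 and R 3.4.1, with build mm10. Symbols were matched by gene identifier for 23718 of 23808 genes.

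FPKM are not counts, so no count test was run. Values were transformed to log2(FPKM + 1), which understates low genes, and those averaging at least 1 FPKM were tested with limma 3.58.1 in R 4.3.3 (mean-variance trend, two-sided, no covariates, Benjamini-Hochberg over 11456 genes, threshold 0.05). Tested on simulated data, the fit recovered large changes but not moderate ones, so a count of 0 does not show equal levels. Changes were planted only in genes of higher level than Igf1r, Irs1 and Irs2. Noise was drawn for each gene on its own, so shifts of whole libraries were not covered. The labels name no batch. The members and lists were chosen with earlier results of these data known. Named genes are all members, 13 set by name, and the 4 pathway genes in each direction with the smallest p. Some genes that this rule names are not reported here. Figures used matplotlib 3.10.9 in Python 3.11.15. Promoters come from RefSeq (GRCm38.p6). Alternatives were other pseudocounts, filters, scalings, variance models, library weights, a replicate block and leaving out each library.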

Additional observations from a re-analysis of the deposited data

How the results depend on the processing

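No alternative brought a member past an adjusted p of 0.05. The count of genes that passed, 0 with limma, was 73 with the replicate number as a block, 0 to 1 when 1 library was left out (1 without NC 2) and 0 under the other alternatives, an adjusted p of 0.1 as threshold included. Of the 73 genes 22 were higher and 51 lower, and Igfbp3 was the 1 among them that belongs to the pathway lists. In the block fit the estimated prior degrees of freedom were infinite, so that variances followed the trend alone. Deviations from the diet means correlated across genes at 0.19, 0.09 and 0.28 for the libraries numbered 1, 2 and 3. NC 1 and NC 3 correlated best with the HFD library of the same number, and NC 2 with HFD 1 (0.25). Deviations within a diet sum to 0, so these correlations depend on one another and cannot decide whether the numbers pair the libraries. The main fit used no pairing. The sign of the log2 difference turned for Akt1 after quantile normalization (0.0358) and after scaling without mitochondrial genes (0.0551). With 1 library left out it ranged from −0.0720 to 0.234 for Insr, −0.340 to 0.0751 for Igf1r, −0.0619 to 0.284 for Irs2, −0.0697 to 0.354 for Pik3ca, −0.220 to 0.112 for Akt1 and −0.352 to 0.108 for Akt2; the cause was not tested. It kept its sign in Igf1, Irs1, Pik3r1 and Tbc1d4, though its size moved by over 1.5 times in each. The median of receptors and adaptors moved from −0.03 to −0.23 without HFD 3, where that of all tested genes was −0.11. Igf1r, Irs1 and Irs2 have no value with a minimum mean of 5 FPKM. Unknown depth limits what can be said of low genes such as Irs2.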
